A study of Homo sapiens with 8 samples.

Results

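The expression of 10 genes that report on MAPK (mitogen-activated protein kinase) signalling was followed in MP38 cells under 3 epigenetic drugs. They form a list, given by gene name, of ERK output and feedback genes: the phosphatases DUSP4, DUSP5 and DUSP6, the Sprouty and SPRED inhibitors SPRY2, SPRY4, SPRED1 and SPRED2, the transcription factors ETV4 and ETV5, and PHLDA1. All 10 listed genes were in the table of 35238 gene symbols and all 10 were among the 15085 that passed the filter on low counts. MP38 is a uveal melanoma (UM) cell line that carries a BAP1 mutation. Bulk RNA was sequenced after 24 h in 4 groups, with 2 libraries in each: a control in 0.1% DMSO, 40 nM romidepsin, 40 nM quisinostat and 1200 nM mivebresib. Romidepsin, a cyclic depsipeptide, and quisinostat, a hydroxamate, inhibit histone deacetylases (HDAC), whereas mivebresib blocks the bromodomains of BET proteins. The mivebresib dose therefore differed from that of the HDAC inhibitors, which were matched to each other in concentration and time. They were not matched in potency, since the paper found romidepsin more potent than quisinostat against the viability of MP38 cells. All groups are cultures of a single cell line, and the study treated its MP38 duplicates in separate wells, so p-values measure the spread between wells of that line.

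ERK is the last kinase of the RAS, RAF and MEK cascade. In UM the cascade is usually driven from mutated Gq proteins through phospholipase C, protein kinase C and the exchange factor RASGRP3. Active ERK induces a set of short-lived transcripts, and many of their products switch the cascade off again: dual-specificity phosphatases take phosphate from ERK, while Sprouty and SPRED proteins act upstream at the level of RAS and RAF. The PEA3 factors ETV4 and ETV5 carry the signal on to further genes. The level of these transcripts is therefore commonly read as a gauge of pathway output, although the present data hold RNA only and no measure of ERK phosphorylation.

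Total counts per library ran from 28483235 to 29359024. The control libraries differed most from each other, with a chi-square statistic per degree of freedom of 58.1 over genes against 9.52 to 9.79 in the drug groups, and each result was therefore refitted without each library in turn. Of the melanocytic markers, TYRP1, PMEL, MITF, SOX10 and MLANA had high levels, whereas DCT and S100B stayed below 0.5 CPM in every library. Markers of other cell types were low but moved with the drugs. The 6 fibroblast markers summed to 1.98 to 2.48 CPM in the control libraries, 4.24 to 5.46 with romidepsin, 8.44 to 10.89 with quisinostat and 1.28 to 1.76 with mivebresib. The 4 endothelial markers summed to 0.602 to 0.913, 3.03 to 3.57, 5.16 to 5.83 and 1.13 to 1.40 CPM in the same order, and the 4 epithelial markers to 2.41 to 3.76, 3.02 to 3.55, 6.50 to 8.10 and 5.85 to 6.04 CPM. KDR rose 9.09-fold and COL1A1 5.98-fold with quisinostat, and 5.37-fold and 2.84-fold with romidepsin, while KRT18 rose 2.27-fold with quisinostat and 2.20-fold with mivebresib. These 3 genes made up most of the sums of their lists. PECAM1 and KRT8 rose 3.45-fold and 2.66-fold under quisinostat, and KRT8 under mivebresib had a log2 FC of −0.89, short of the threshold. PDGFRB, the other fibroblast marker tested, went the other way. It fell with mivebresib (−2.17), and its negative values for romidepsin (−1.16) and quisinostat (−1.07) did not pass the test. CDH5 and KRT5 had 0 counts throughout, and of 5 immune markers CD68 alone had a level above 0.4 CPM and did not pass the test with any drug. Of the 9 melanocytic markers that could be tested, romidepsin lowered 1, quisinostat 4 and mivebresib 6, and 0 rose. MITF fell with quisinostat (log2 FC −1.39) and mivebresib (−1.47), as did SOX10, MLANA and GPR143, whereas TYRP1 passed the test with neither (−0.25 and −0.19) and PMEL and OCA2 fell with mivebresib alone. The part of these marker changes in the results below was not tested. In bulk RNA, fewer cells of a type and less RNA per cell cannot be told apart.

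Levels were read as CPM, reads of the gene relative to the library total after TMM scaling, and differences as log2 fold changes (log2 FC) with their standard error from edgeR, called at an adjusted p below 0.05 over all tested genes. Per kilobase of exon, the control level was highest for DUSP6 (16.4 CPM per kb), followed by SPRED2 (15.9) and DUSP4 (14.1). SPRED1, SPRY4 and PHLDA1 had 11.8, 10.6 and 10.1 CPM per kb. SPRY2 and ETV5 followed at 7.25 and 6.67, and DUSP5 and ETV4 were the lowest at 3.60 and 3.40 CPM per kb. With mivebresib the order changed, with PHLDA1 at 19.8 CPM per kb and ETV4 at 0.776.

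Promoter windows, from 250 bases before to 50 after a RefSeq transcript start, were held for 6 of the 10 genes (9 windows, GRCh38.p14): SPRED1, SPRED2, SPRY2, SPRY4, PHLDA1 and DUSP6. No window was held for DUSP4, DUSP5, ETV4 and ETV5. Since some ETS factors are direct substrates of ERK, the windows were searched on both strands for CGGAAG, a core that ETS factors bind. The core does not tell those factors from others of the family. It occurred in 3 of 9 windows, against 19.5% of the 35116 windows of all genes. The 3 windows with the match, from DUSP6, PHLDA1 and SPRED2, are shown. The windows of SPRED1, SPRY2 and SPRY4 held no match, and a link between the match and the drug responses was not tested. Capitals mark the match, written CTTCCG where it lies on the other strand.
DUSP6, chr12:89352452-89352751, minus strand: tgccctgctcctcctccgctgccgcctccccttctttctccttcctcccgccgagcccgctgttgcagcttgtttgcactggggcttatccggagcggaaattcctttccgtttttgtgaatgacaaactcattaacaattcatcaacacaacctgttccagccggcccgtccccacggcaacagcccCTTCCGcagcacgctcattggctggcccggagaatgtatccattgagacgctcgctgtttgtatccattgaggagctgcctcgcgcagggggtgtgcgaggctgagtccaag
PHLDA1, chr12:76031727-76032026, minus strand: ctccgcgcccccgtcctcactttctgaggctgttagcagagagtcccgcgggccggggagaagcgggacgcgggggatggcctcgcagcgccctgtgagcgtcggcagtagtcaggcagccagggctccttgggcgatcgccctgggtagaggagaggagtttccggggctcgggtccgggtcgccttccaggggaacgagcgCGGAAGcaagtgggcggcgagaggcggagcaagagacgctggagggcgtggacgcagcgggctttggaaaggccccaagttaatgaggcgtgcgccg
SPRED2, chr2:65432550-65432849, minus strand: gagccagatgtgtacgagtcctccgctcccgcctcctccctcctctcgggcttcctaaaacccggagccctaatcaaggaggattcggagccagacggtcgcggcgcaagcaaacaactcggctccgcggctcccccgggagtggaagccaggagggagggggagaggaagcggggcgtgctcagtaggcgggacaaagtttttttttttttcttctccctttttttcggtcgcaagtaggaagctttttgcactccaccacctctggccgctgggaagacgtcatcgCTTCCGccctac
The match began 62 bases before the start in DUSP6 and 47 bases before it in PHLDA1, and 38 bases after it in SPRED2. The AP-1 motif TGANTCA lay in 1 of the 9 windows, a second SPRED2 start, against 7.71% of all windows. TGACGTCA, the cyclic AMP response element, and the E-box CACGTG were in 0 of the 9 windows, against 1.85% and 7.26% of all. A match is a run of letters, not a shown binding site.

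The phosphatases did not move together. DUSP6 fell with each drug and DUSP4 rose with each, while DUSP5 rose with romidepsin and mivebresib and did not pass the test with quisinostat. DUSP6, a cytoplasmic phosphatase that is specific for ERK, had 75.1 and 77.1 CPM in the control libraries, 63.9 and 64.3 with romidepsin, 47.0 and 48.5 with quisinostat, and 43.2 and 43.4 with mivebresib. Every drug library lay below both controls, and no groups overlapped. The fall was strongest with mivebresib (log2 FC −0.81 ± 0.071 SE, adjusted p = 4.7e-05) and quisinostat (−0.67 ± 0.070, adjusted p = 9.6e-05), and both calls held in all 17 alternatives. With romidepsin the log2 FC was −0.25 ± 0.070 (adjusted p = 0.028), and that call held in 5 of 17 alternatives, with adjusted p between 0.028 and 0.16; it was lost without either romidepsin library (0.16 and 0.12), either quisinostat library (0.087 and 0.087) or either mivebresib library (0.050 and 0.051). DUSP6 lies at chr12:89347232-89353271 on the minus strand (GRCh38).

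DUSP4, a nuclear phosphatase of ERK and other MAPKs, had 104.3 and 100.9 CPM in the control, 129.9 and 141.3 with romidepsin, 123.9 and 123.2 with quisinostat, and 130.8 and 127.5 with mivebresib. All 6 drug libraries were above both controls, by a small margin. The log2 FC was 0.40 ± 0.077 with romidepsin (adjusted p = 0.0056), 0.27 ± 0.077 with quisinostat (adjusted p = 0.018) and 0.33 ± 0.077 with mivebresib (adjusted p = 0.0079). These calls held in 16, 14 and 16 of 17 alternatives, and were lost without romidepsin replicate 2 (adjusted p = 0.062), without either quisinostat library (0.083 and 0.096) and without mivebresib replicate 1 (0.054).

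DUSP5, an ERK phosphatase of the nucleus, was the least abundant of the 3 phosphatases per kilobase. It had 9.53 and 9.31 CPM in the control libraries, 15.2 and 15.0 with romidepsin, 8.80 and 8.82 with quisinostat, and 11.997 and 12.3 with mivebresib. The romidepsin libraries were the highest and did not overlap any other group. The rise with romidepsin was 1.60-fold (log2 FC 0.68 ± 0.092, adjusted p = 0.0011) and held in all 17 alternatives. With mivebresib the log2 FC was 0.37 ± 0.093 (adjusted p = 0.012), lost in 2 of 17, with adjusted p = 0.062 in the fit of 4 libraries and 0.058 without mivebresib replicate 2. With quisinostat the value was −0.10 ± 0.095 (adjusted p = 0.41, 95% interval −0.31 to 0.12), and its sign turned under other scalings.

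**Figure D1:**
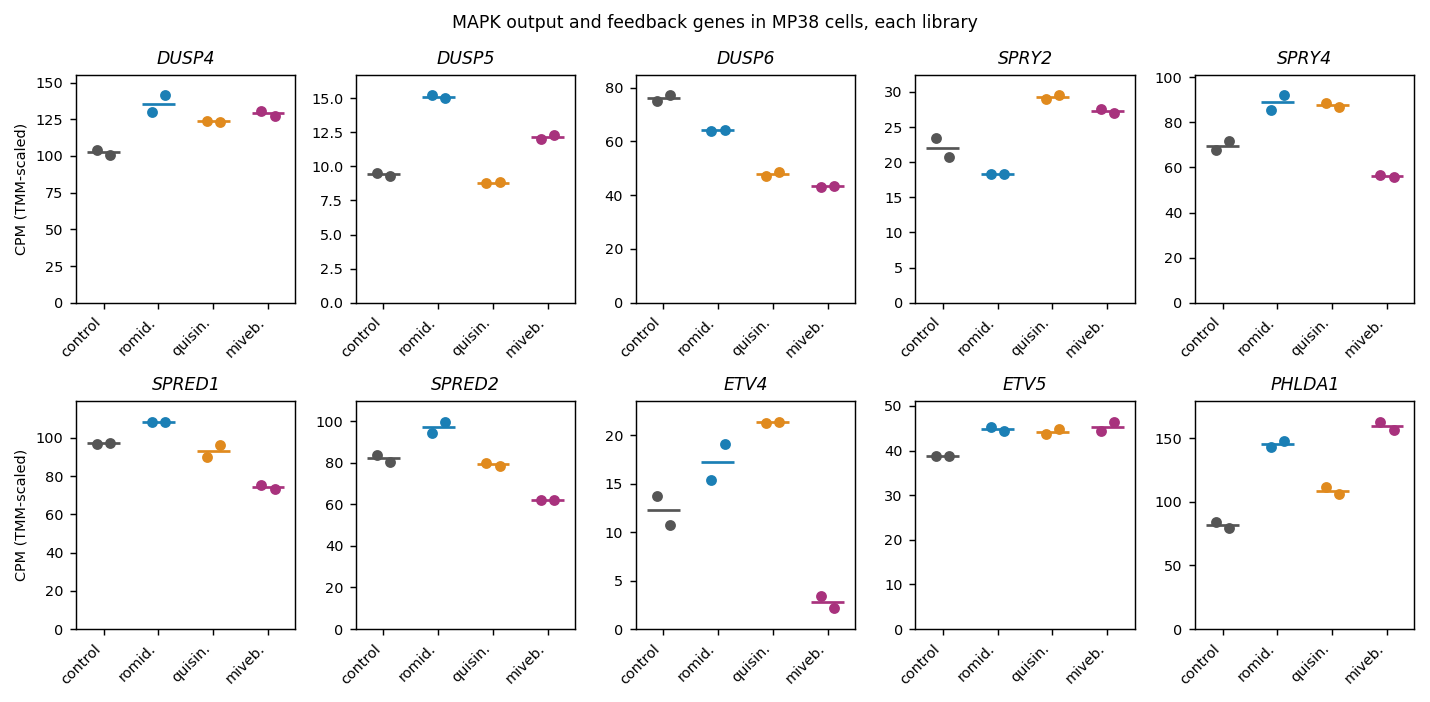
CPM after TMM scaling (y axis, from 0) of each of the 10 genes in the 8 libraries, by group (x axis); points are libraries and bars are group means of 2. DUSP6 stepped down from 76.1 CPM in the control to 43.3 with mivebresib. In the order control, romidepsin, quisinostat and mivebresib, ETV4 had 12.3, 17.3, 21.4 and 2.80 CPM, and PHLDA1 81.7, 145, 109 and 160.

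Among the Sprouty and SPRED inhibitors, SPRY4, SPRED1 and SPRED2 fell with mivebresib, and SPRY2 rose. None of the 4 fell by the test under an HDAC inhibitor. SPRY4 had 67.6 and 71.6 CPM in the control libraries, 85.7 and 92.0 with romidepsin, 88.8 and 87.0 with quisinostat, and 56.7 and 55.9 with mivebresib. The HDAC inhibitor libraries were all above the controls and the mivebresib libraries all below them. The log2 FC was 0.35 ± 0.076 with romidepsin (adjusted p = 0.0093), 0.34 ± 0.076 with quisinostat (adjusted p = 0.0058) and −0.31 ± 0.077 with mivebresib (adjusted p = 0.011). The quisinostat call held in all 17 alternatives and the others in 15 and 14; SPRY4 lost the romidepsin call without romidepsin replicate 2 (adjusted p = 0.085) and the mivebresib call without either mivebresib library (0.051 and 0.068).

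SPRED1, which binds RAS regulators and holds RAF activation back, had 97.07 and 97.13 CPM in the control, 108.2 and 108.5 with romidepsin, 90.2 and 96.2 with quisinostat, and 75.6 and 73.3 with mivebresib. Its fall with mivebresib was log2 FC −0.38 ± 0.074 (adjusted p = 0.0031) and held in all 17 alternatives. Romidepsin gave 0.16 ± 0.073 (adjusted p = 0.13) and quisinostat −0.06 ± 0.073 (adjusted p = 0.52), neither past the threshold. The romidepsin value passed it in 4 of 17 alternatives, those with another scaling, the log table or the stricter filter.

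SPRED2, its close relative, had 83.9 and 80.2 CPM in the control, 94.5 and 99.8 with romidepsin, 80.0 and 78.5 with quisinostat, and 62.03 and 62.00 with mivebresib. The mivebresib libraries lay below all others, with log2 FC −0.40 ± 0.074 (adjusted p = 0.0023), again in all 17 alternatives. The rise with romidepsin, 0.24 ± 0.073 (adjusted p = 0.036), held in 7 of 17 alternatives, and the replicate block gave adjusted p = 0.052. Without a library the SPRED2 call was lost for each library but control replicate 1, with adjusted p from 0.059 to 0.20. With quisinostat it was −0.05 ± 0.073 (adjusted p = 0.59).

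SPRY2, the Sprouty protein that blocks receptor signalling to RAS, rose with quisinostat as SPRY4 did and, unlike SPRY4, rose with mivebresib. Its control libraries held 23.4 and 20.7 CPM, against 18.4 and 18.3 with romidepsin, 28.9 and 29.5 with quisinostat, and 27.6 and 27.05 with mivebresib. The quisinostat rise of log2 FC 0.41 ± 0.087 (adjusted p = 0.0043) held in all 17 alternatives, and the mivebresib rise of 0.31 ± 0.087 (adjusted p = 0.018) in 13, lost without control replicate 2 (0.068) and without either mivebresib library (0.087 and 0.065). Romidepsin gave −0.27 ± 0.089, just short of the threshold (adjusted p = 0.052); for SPRY2 this value rested on the control libraries, with −0.15 without control replicate 1 (adjusted p = 0.28) and −0.35 without control replicate 2 (adjusted p = 0.011).

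Of the PEA3 transcription factors, ETV4 gave the only change beyond the study's fold threshold and ETV5 changed little. ETV4 had 13.8 and 10.8 CPM in the control libraries, 15.4 and 19.1 with romidepsin, 21.3 and 21.4 with quisinostat, and 3.40 and 2.19 with mivebresib, the latter from 93 and 61 counts. The mivebresib libraries were far below all others, and the quisinostat libraries were above the rest. The log2 FC was −2.13 ± 0.22 with mivebresib (adjusted p = 9.9e-05) and 0.80 ± 0.18 with quisinostat (adjusted p = 0.0055). Both calls held in all 17 alternatives, with log2 FC from −2.49 to −1.79 and from 0.63 to 1.00. Romidepsin gave 0.49 ± 0.18 (adjusted p = 0.069), with 0.70 without control replicate 1 (adjusted p = 0.013), 0.32 without control replicate 2 (0.16) and 0.33 without romidepsin replicate 2 (0.33). ETV4 (chr17:43527844-43579620, minus strand) overlaps DHX8 on the opposite strand, which had 1511 to 1846 counts per library; whether the counting used strand is not given in the sources used here, so reads may be shared.

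ETV5 had 38.69 and 38.72 CPM in the control, 45.3 and 44.4 with romidepsin, 43.6 and 44.8 with quisinostat, and 44.3 and 46.5 with mivebresib. All 6 drug libraries were above the controls, and the drug groups overlapped. The log2 FC was 0.21 (adjusted p = 0.057), 0.19 (adjusted p = 0.053) and 0.23 (adjusted p = 0.031) with romidepsin, quisinostat and mivebresib, so that mivebresib alone passed the threshold; the romidepsin and quisinostat values passed it in 4 of 17 alternatives each. The mivebresib call held in 7 of 17 alternatives; DESeq2 gave 0.053, and the call was lost without each library but control replicate 2, with adjusted p from 0.053 to 0.15. That the drugs differ in this is not shown, since the direct differences were at most 0.04 in size.

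PHLDA1, a pleckstrin homology-like protein whose transcript is an early response to ERK, rose with every drug. It had 84.0 and 79.3 CPM in the control libraries, 142.6 and 147.95 with romidepsin, 111.2 and 106.3 with quisinostat, and 162.9 and 156.1 with mivebresib. All 6 drug libraries were above both controls, and no groups overlapped. The rise was 1.95-fold with mivebresib (log2 FC 0.97 ± 0.078, adjusted p = 3.2e-05), 1.78-fold with romidepsin (0.83 ± 0.078, adjusted p = 2.1e-04) and 1.33-fold with quisinostat (0.41 ± 0.077, adjusted p = 0.0022). All 3 calls held in all 17 alternatives.

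**Figure D2:**
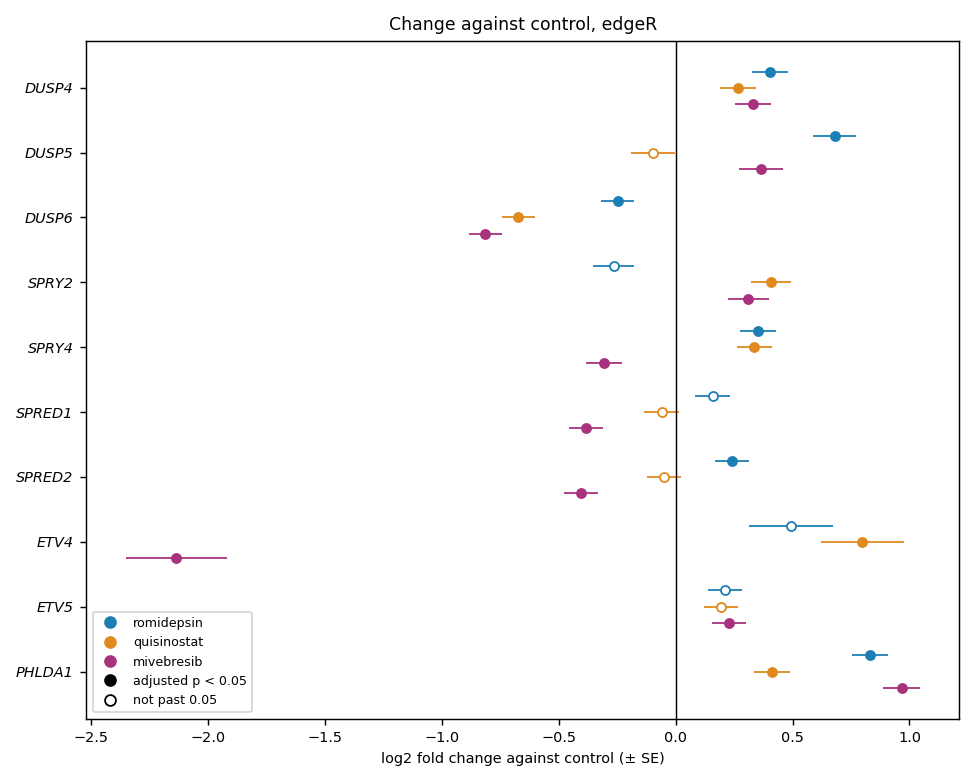
Log2 FC against control with its SE (x axis) for the 10 genes (y axis) and the 3 drugs (colours); filled points passed an adjusted p of 0.05. ETV4 with mivebresib, at −2.13, stands apart, and DUSP6 lies left of 0 and PHLDA1 and DUSP4 right of 0 for every drug.

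Counted together, 5 of the 10 genes rose and 1 fell with romidepsin, where 15.2% of all tested genes rose and 15.8% fell. With quisinostat 5 rose and 1 fell, against 28% and 25.1% of all genes. With mivebresib 5 rose and 5 fell, against 22.2% and 24.1%. The median log2 FC of the list was 0.30, 0.23 and −0.04 in turn, beside medians of all tested genes between −0.01 and 0.01. Past a log2 FC of 1.5 as well, the list held 0 genes that rose with any drug, 0 that fell with romidepsin or quisinostat, and 1, ETV4, that fell with mivebresib. The background for that rule was 3.77% higher and 0.312% lower with romidepsin, 11.2% and 1.03% with quisinostat, and 3.96% and 4.36% with mivebresib. The list's 10 genes were all called with mivebresib, but 9 of the 10 changed by less than 1 on the log2 scale. Taken without sign, the median log2 FC of the list was 0.31 with romidepsin, 0.30 with quisinostat and 0.37 with mivebresib. For all tested genes, which were not matched to the list by level, it was 0.30, 0.43 and 0.41. The list's median was thus near that of all tested genes with romidepsin, and below it with quisinostat and mivebresib. These 3 comparisons share the control libraries. Of the 22 calls against control, 12 held in every one of the 17 alternatives.

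**Figure D3:**
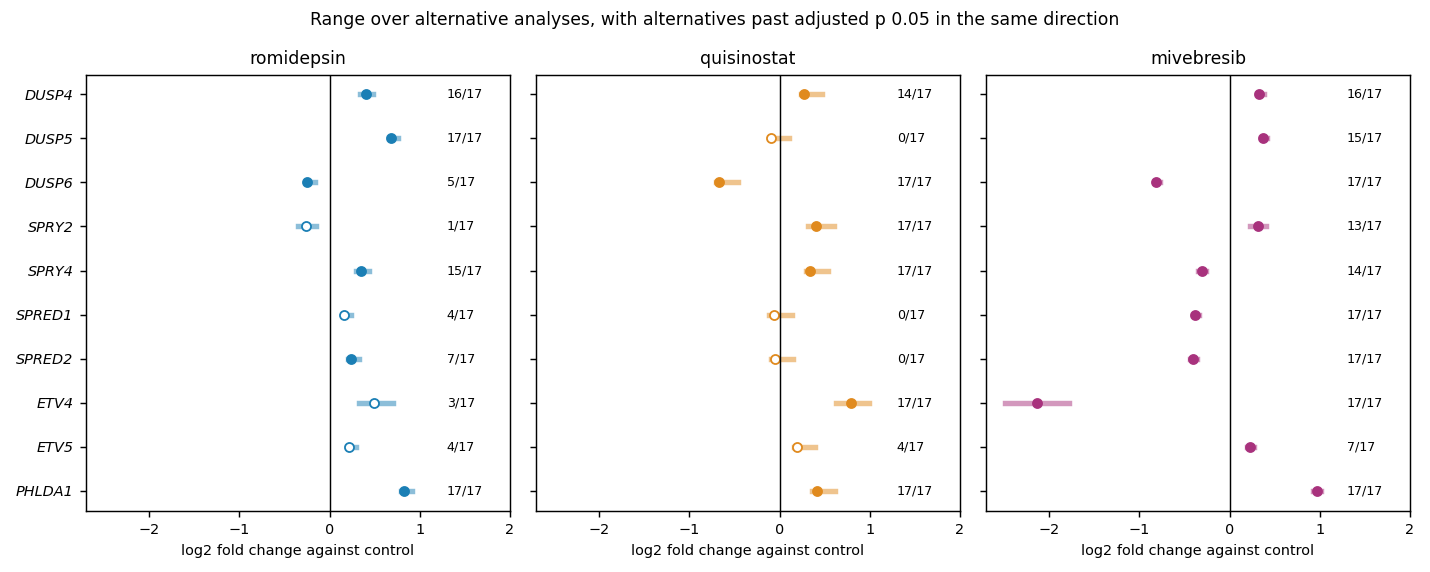
Log2 FC against control (x axis) of each gene with each drug; points are the edgeR values, bars the range over 17 alternatives and the fractions how many alternatives passed an adjusted p of 0.05 in the same direction. PHLDA1 shows 17/17 for every drug, and DUSP6 5/17 with romidepsin.

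The drugs were next set against each other directly. Quisinostat and romidepsin, matched in concentration and time but not in potency, differed in 6 of the 10 genes. With quisinostat 1 was higher and 5 lower, where 21% and 14.6% of all genes were. DUSP5 was 0.78 lower on the log2 scale (95% interval −0.99 to −0.57, adjusted p = 5.2e-04), PHLDA1 0.42 lower (−0.59 to −0.24, adjusted p = 0.0040) and DUSP6 0.42 lower (−0.59 to −0.26, adjusted p = 0.0025). SPRY2 was 0.67 higher (0.47 to 0.87, adjusted p = 7.9e-04). These 4 differences held in all 17 alternatives. SPRED2 (−0.29, adjusted p = 0.015) held in 11 and was lost without either library of romidepsin or quisinostat (0.055 to 0.11). SPRED1 (−0.22, adjusted p = 0.047) held in 5; the replicate block gave 0.066, and it was lost without each drug library (0.071 to 0.25). For SPRY4 the difference was −0.02 (−0.19 to 0.16), for ETV5 −0.02 (−0.19 to 0.15), for DUSP4 −0.13 (−0.31 to 0.04) and for ETV4 0.31 (−0.09 to 0.70).

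Against romidepsin, mivebresib gave 1 gene higher and 6 lower, where 23.7% and 25.2% of all genes were. ETV4 was lower by 2.63 on the log2 scale (95% interval −3.11 to −2.14), SPRY4 by 0.66, SPRED2 by 0.65, DUSP6 by 0.57, SPRED1 by 0.54 and DUSP5 by 0.31, and SPRY2 was higher by 0.58. The DUSP5 difference was lost in 5 of 17 alternatives, among them each library of romidepsin or mivebresib left out (adjusted p from 0.062 to 0.096). Against quisinostat, mivebresib gave 2 higher and 4 lower, where 26.2% and 31.5% of all genes were. ETV4 was lower by 2.93 (−3.41 to −2.45), SPRY4 by 0.64, SPRED2 by 0.35 and SPRED1 by 0.32, and PHLDA1 and DUSP5 were higher by 0.55 and 0.46. SPRED1 lost its call without quisinostat replicate 2 (adjusted p = 0.068). ETV4, SPRY4, SPRED1 and SPRED2 were thus lower with mivebresib than with either HDAC inhibitor, though the doses differ.

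**Figure D4:**
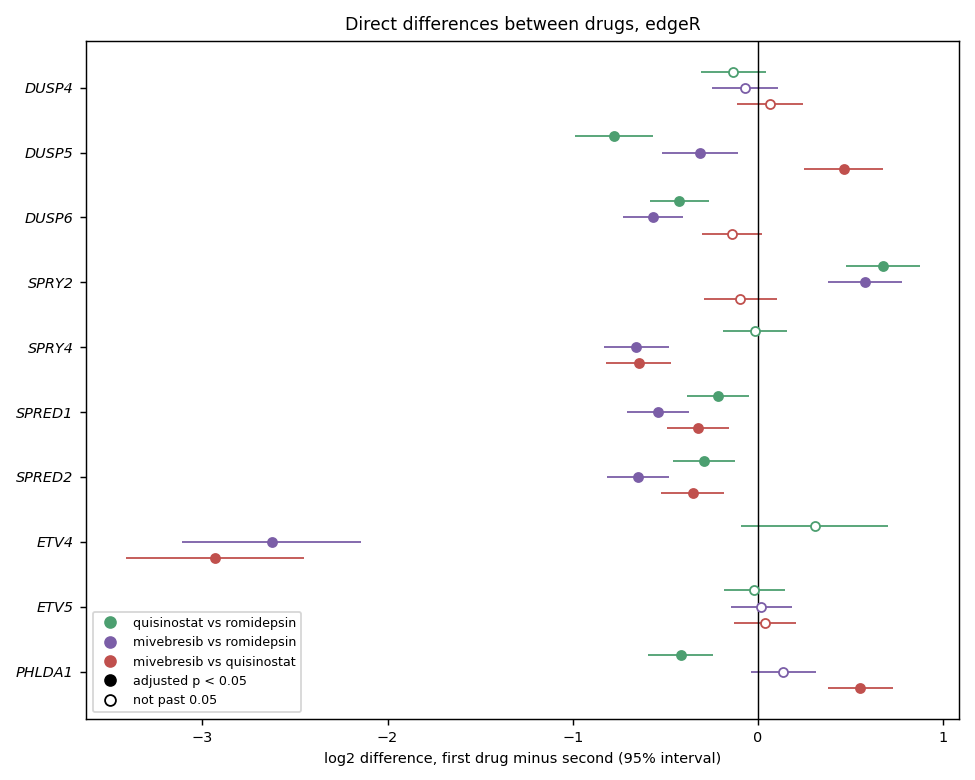
Direct log2 differences between drugs with 95% intervals (x axis) for the 10 genes (y axis); filled points passed an adjusted p of 0.05. The ETV4 intervals for mivebresib lie below −2, and the 3 intervals of ETV5 span 0.

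Related genes were read from 3 lists. Of 13 other DUSP, SPRY, SPRED, ETV and PHLDA genes, 4 rose and 2 fell with romidepsin, 4 and 2 with quisinostat, and 3 and 7 with mivebresib (median log2 FC −0.10, 0.01 and −0.35). The share called in either direction was 46.2%, 46.2% and 76.9%, against 31%, 53.2% and 46.2% of all tested genes. ETV1, the third PEA3 factor, had 33.1 and 35.25 CPM in the control and 62.3 and 66.3 with romidepsin (log2 FC 0.91). It had 96.7 and 101.8 CPM with quisinostat and 12.5 and 11.7 with mivebresib (log2 FC 1.54 and −1.50). SPRED3 likewise rose with quisinostat (1.09) and fell with mivebresib (−1.80), as ETV4 did. DUSP9, another ERK phosphatase, fell with mivebresib (−2.48) and less with quisinostat (−0.66). DUSP2 fell with quisinostat (−1.49), where it had only 25 and 27 counts. SPRY3 rose with romidepsin (1.36), quisinostat (1.98) and mivebresib (0.95). DUSP1, a stress-induced MAPK phosphatase, rose with romidepsin (1.01) and less with mivebresib (0.36, adjusted p = 0.049).

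Of 26 genes of the cascade from Gq to ERK, 3 rose and 5 fell with romidepsin, 5 and 11 with quisinostat, and 5 and 8 with mivebresib (median log2 FC −0.03, −0.20 and −0.10). The share called was 30.8%, 61.5% and 50%, near the 31%, 53.2% and 46.2% of all tested genes. With mivebresib RASGRP3 fell from 138.45 and 133.15 CPM to 27.7 and 29.7 (log2 FC −2.24). With the same drug the protein kinase C gene PRKCE fell as far (−2.50), and the ERK-activated kinase gene RPS6KA1 rose (1.42). With quisinostat RASGRP3 (−0.85) and PRKCE (−0.70) also fell, but less, and RPS6KA1 rose less (0.50). Of 18 other ERK output genes, 5 rose and 4 fell with romidepsin, 3 and 8 with quisinostat, and 4 and 6 with mivebresib (median log2 FC 0.17, −0.25 and −0.11). The share called was 50%, 61.1% and 55.6%, against 31%, 53.2% and 46.2% of all tested genes. The immediate early genes FOS and EGR3 fell with quisinostat (−1.69 and −1.69) and with mivebresib (−1.51 and −4.05). EGR3 fell less with romidepsin (−0.46). The 4 genes that rose with mivebresib were EGR1 (0.53), MYC (0.78), IER3 (0.52) and CCND1 (0.36). EGR1 also rose with romidepsin (0.49) and fell with quisinostat (−0.29). FOSL1 (−1.01) and SPHK1 (−1.12) fell with quisinostat, EPHA4 (−1.06) and LIF (−2.46) with mivebresib, and IER3 (1.05) rose with romidepsin. KCNN4 also rose with romidepsin (1.90, adjusted p = 0.047), at under 0.6 CPM in every library. LIF with mivebresib rests on 8 and 17 counts. Some of these genes were also called with another drug, at changes of less than 1. FOSL1 fell with mivebresib (−0.48) and romidepsin (−0.34), and SPHK1 with romidepsin (−0.87). IER3 rose with quisinostat too (0.31), and EPHA4 rose with quisinostat (0.94).

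**Figure D5:**
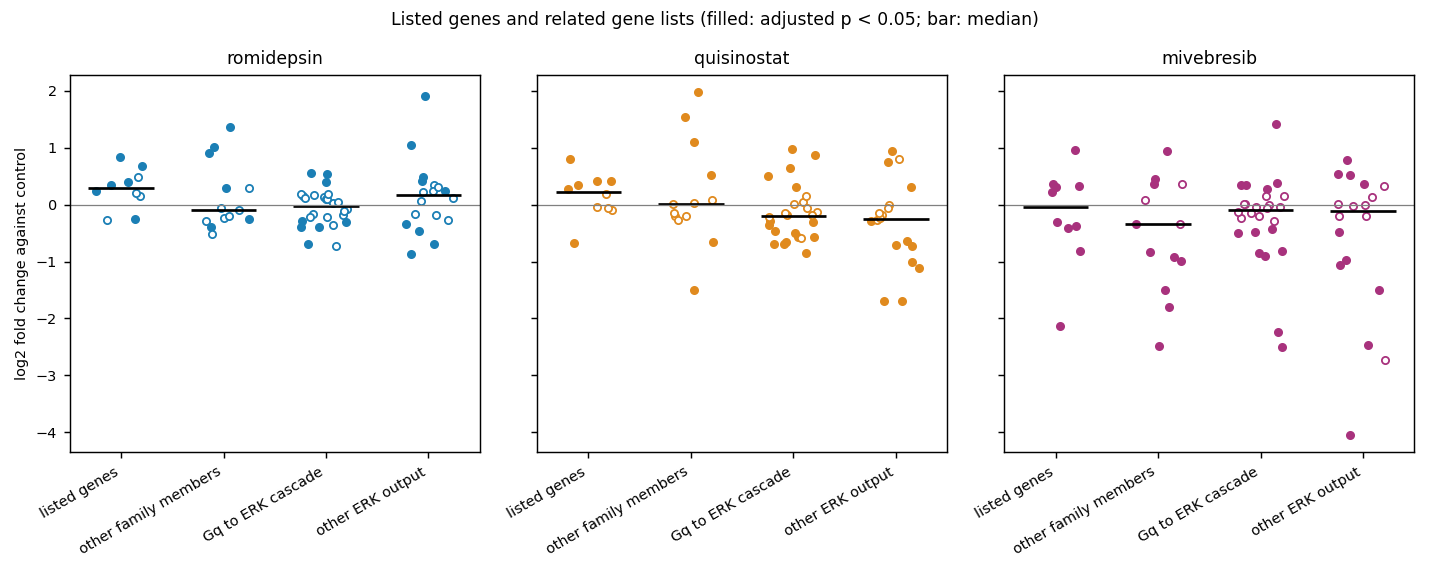
Log2 FC against control (y axis) of the 10 genes and of 3 related lists (x axis), a panel per drug; filled points passed an adjusted p of 0.05 and bars are medians. With mivebresib ETV4 is the lowest point of the 10, at −2.13, and EGR3 the lowest of all, at −4.05.

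For each gene the tested gene with the most similar profile was found by the root-mean-square difference of centred log2 CPM over the 8 libraries, among 9671 genes. DUSP6 was closest to NFIX (0.032), ETV5 to FBXO18 (0.031), SPRED1 to HOMEZ (0.036), SPRED2 to SDCCAG8 (0.043), SPRY4 to TTC23 (0.047) and DUSP4 to ARFIP1 (0.050). DUSP5 was closest to STK4 (0.065), PHLDA1 to H1F0 (0.067) and SPRY2 to YPEL5 (0.069). For ETV4 the nearest profile was that of ARNT2 (0.21). The measure is not scaled to a gene's own spread over the libraries, which was 1.24 for ETV4 (SD of log2 CPM) against 0.10 for ETV5 and 0.17 for DUSP4.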

How the data were processed

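MP38 libraries were grouped by the treatment in the sample labels. The authors deposited counts of reads per gene symbol without normalization, from paired-end libraries (150 bases) that kept strand; the labels name hg38, and aligner and annotation are not given in the sources used here. They also deposited log10 values, equal to log10(CPM + 1) of those counts, and a quantile-normalized table, not used here. Counts of all 8 libraries entered 1 edgeR 4.0.16 model in R 4.3.3 (TMM, filterByExpr with a minimum count of 10, common biological coefficient of variation 0.0938); quasi-likelihood p-values were Benjamini-Hochberg adjusted over 15085 genes, and SE was taken as the log2 FC over the root of F. CPM per kilobase used the union of GENCODE exons. The alternatives were DESeq2 1.42.0, limma-voom and limma 3.58.1 on the log table, other scalings and filters, 4 libraries, a replicate block and each library left out. Simulated counts were used to test the scripts. Other genes were named by a rule: at most 4 per list and drug, called and changed by over 1 on the log2 scale, highest mean level first; likeness needed an average log2 CPM of at least 3. The members and lists were chosen with earlier results of these data known. Intervals cover the fitted spread of 2 libraries per group.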

Additional observations from a re-analysis of the deposited data

How the results depend on the processing

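Over the named settings, 463 of 540 values for the listed genes kept direction and side of the threshold, 26 lost a call, 20 gained one and 31 turned sign; with a library left out the counts were 427, 46, 2 and 5 of 480. Each value that turned sign had not been called. Scaling by library size alone moved the median log2 FC of all genes with quisinostat to 0.20 (upper-quartile factors 0.13, TMM −0.0036). Values are given in the order limma on the log table, library size alone, upper-quartile factors and a mean CPM of at least 5. Quisinostat against control became 0.0932, 0.103 and 0.0330 for DUSP5 (no turn in the last), 0.138, 0.141, 0.0705 and 0.0358 for SPRED1, and 0.148, 0.149, 0.0792 and 0.0444 for SPRED2. Quisinostat against romidepsin became 0.112, 0.113, 0.0303 and 0.0205 for SPRY4 and 0.106, 0.108, 0.0258 and 0.0165 for ETV5. Mivebresib against romidepsin became −0.0336, −0.0335, −0.0203 and −0.0129 for ETV5. Mivebresib against quisinostat became −0.115, −0.116, −0.0199 and −0.00293 for DUSP4 and −0.139, −0.142, −0.0461 and −0.0294 for ETV5. With a library left out, quisinostat against romidepsin ran from −0.0722 to 0.0317 for SPRY4 and mivebresib against romidepsin from −0.0169 to 0.04996 for ETV5.

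Of the counts of listed genes, those rising with romidepsin were 8 with library size alone, 8 with upper-quartile factors, 3 with 4 libraries and 2 to 6 with a library left out. Those falling with romidepsin were 0 with the log table, no filter, either other scaling, a mean CPM of at least 5 or 4 libraries, and 0 to 2 with a library left out. Those rising with mivebresib were 2 with 4 libraries and 2 to 4 with a library left out. Listed genes lower with quisinostat than with romidepsin were 3 with the log table, 3 with library size alone and 3 to 5 with a library left out. Beyond a log2 FC of 1.5, 1 gene was lower with mivebresib than in control, romidepsin or quisinostat, and the other counts were 0. Differences between replicates 1 and 2 correlated weakly between groups (−0.16 to 0.16). The labels give shared numbers but no batch, and 2 libraries per group cannot show that none was shared. The replicate block ended the romidepsin call of SPRED2 (log2 FC 0.24, adjusted p = 0.052). It also ended the SPRED1 difference between quisinostat and romidepsin (−0.22, adjusted p = 0.066), and no other call of the listed genes. The cause of the lost calls was not tested. Each group had 2 libraries, and ETV4 with mivebresib rests on 93 and 61 counts.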
